A study of Mus musculus with 20 samples.

Results

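The type I interferon response genes described here are 40 mouse genes, chosen by symbol for their known place in the response: the interferon receptor, the transcription factors it uses, and genes that the response induces. They are 40 of the 51912 genes in the deposited tables, and all 40 were among the 28762 tested genes, those with 1 or more reads in any library. RNA sequencing of sorted neutrophils gave 20 libraries in 5 groups of 4. All mice were C57BL/6. The mice with pancreatic ductal adenocarcinoma (PDAC) had been inoculated 10 days earlier with KPC cells, a tumor line grown from C57BL/6 mice that develop pancreatic tumors from transgenes switched on under the Pdx1-Cre driver. Their neutrophils came from the blood, the brain, the liver and the tumor, and the fifth group held neutrophils from the blood of sham-operated mice given saline. The sources used here do not say whether the cells were injected into the peritoneum or the pancreas of these mice, nor whether samples with the same number came from 1 mouse, so p-values measure the spread between libraries. In bulk RNA, fewer cells of a type and less RNA per cell cannot be told apart.

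Type I interferons, a family of alpha proteins and a single beta protein with a few relatives, are secreted by cells that sense viral RNA or DNA. They bind a receptor of the chains IFNAR1 and IFNAR2, whose kinases activate transcription factors, STAT2 among them. With IRF9 these form a complex that binds the interferon-stimulated response element in promoters and switches on antiviral genes. Neutrophils carry the receptor, and circulating neutrophils are known to express such genes at rest.

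The libraries held 47388245 to 54472378 counts each. Levels are given as CPM, the counts of a gene relative to the scaled total of its library. The sort took live CD11b-high Ly6G-high cells, and Ly6g, which encodes the sorted surface protein, had 33.3 to 86.3 CPM in sham blood, 117 to 316 in tumor-mouse blood, 229 to 472 in the brain and 66.0 to 154 in the liver, but 1.43 to 13.2 in the tumor. The summed level of 10 neutrophil markers was 7118 ± 3240 CPM (SD, n = 4) in the tumor libraries, against means from 31470 to 67990 in the other groups. Markers of pancreatic tumor epithelium summed to 1108 to 3896 CPM in the tumor libraries and to 5.30 to 400.5 in the others, and monocyte and macrophage markers to 2611 to 5332 and 798 to 3725. The defining neutrophil markers were thus low in the libraries labelled as tumor neutrophils, and the part of this in each tumor comparison was not tested. The comparisons without the tumor were also fitted on their own 2 groups alone, with no tumor library. This gave 1 member higher and 4 lower for brain against tumor-mouse blood, 1 and 0 for brain against liver, 3 and 9 between the blood groups and 1 and 2 in the liver against tumor-mouse blood. With all libraries these were 1 and 5, 1 and 0, 4 and 7, and 1 and 2. The shares of all genes called in the fits on 2 groups were not computed. Those of the fit with all libraries are given with each comparison below.

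Promoters were read for motifs of the response. The members were chosen as genes of this response, so a high share of its motifs among them is not independent of the choice. In 250 bases before and 50 after the start, read from RefSeq on build GRCm38.p6, 31 of the 40 genes had a sequence, and 2 motifs were searched on both strands. The core of the interferon-stimulated response element, GAAA followed by 2 bases of any kind and GAAA, was found in 16 of the 31 genes (51.6%), against 3.99% of all 27025 genes with a promoter in the table. The core of the gamma-activated site, TTC followed by 3 bases of any kind and GAA, to which STAT dimers bind, was found in 10 of the 31 (32.3%), against 9.55% of all genes with a promoter. In Bst2 and in Ifitm3 a match of the second motif overlapped one of the first. The next lines give 6 promoters with a match of the first core, each from its 5′ end on the strand of its gene, with the matches, on either strand, in capitals. They were taken because the levels of these genes took different courses between the groups, as described further on.

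Isg15, the ubiquitin-like modifier (chr4:156200769-156201068, minus strand, 3 overlapping matches):
Isg15: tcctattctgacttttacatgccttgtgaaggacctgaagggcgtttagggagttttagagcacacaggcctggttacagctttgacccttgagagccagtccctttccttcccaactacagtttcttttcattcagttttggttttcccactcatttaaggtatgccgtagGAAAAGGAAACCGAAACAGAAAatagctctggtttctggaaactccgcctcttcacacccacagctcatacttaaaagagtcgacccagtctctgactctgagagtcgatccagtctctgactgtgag
Ifit1, an RNA-binding antiviral protein (chr19:34640639-34640938, plus strand, 2 matches):
Ifit1: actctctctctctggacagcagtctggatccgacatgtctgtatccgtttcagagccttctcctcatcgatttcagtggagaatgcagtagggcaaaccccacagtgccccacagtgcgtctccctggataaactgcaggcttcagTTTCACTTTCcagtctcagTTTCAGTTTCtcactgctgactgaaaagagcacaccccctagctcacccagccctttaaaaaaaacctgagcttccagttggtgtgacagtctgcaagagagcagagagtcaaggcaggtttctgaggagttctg
Rsad2, which encodes viperin (chr12:26456403-26456702, minus strand, 1 match):
Rsad2: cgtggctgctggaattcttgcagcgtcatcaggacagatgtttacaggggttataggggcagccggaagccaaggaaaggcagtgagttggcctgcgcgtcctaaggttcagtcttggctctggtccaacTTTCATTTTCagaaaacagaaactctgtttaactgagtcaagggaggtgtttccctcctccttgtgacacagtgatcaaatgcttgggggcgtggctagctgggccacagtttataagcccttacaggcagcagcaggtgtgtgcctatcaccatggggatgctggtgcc
Bst2, which encodes tetherin (chr8:71537423-71537722, minus strand, 2 overlapping matches):
Bst2: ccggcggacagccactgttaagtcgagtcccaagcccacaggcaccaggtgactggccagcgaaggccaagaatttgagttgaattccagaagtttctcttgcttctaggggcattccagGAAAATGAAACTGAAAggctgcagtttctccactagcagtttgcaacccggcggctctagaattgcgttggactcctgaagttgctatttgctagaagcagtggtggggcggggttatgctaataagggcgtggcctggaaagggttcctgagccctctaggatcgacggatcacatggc
Oas3, an oligoadenylate synthetase (chr5:120777610-120777909, minus strand, 1 match):
Oas3: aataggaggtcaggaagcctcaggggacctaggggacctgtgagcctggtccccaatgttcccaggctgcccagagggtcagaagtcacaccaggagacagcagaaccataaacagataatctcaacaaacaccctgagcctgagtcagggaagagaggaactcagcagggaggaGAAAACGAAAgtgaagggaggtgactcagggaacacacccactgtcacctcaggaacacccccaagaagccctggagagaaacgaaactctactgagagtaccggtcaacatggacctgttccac
Ifitm3, a membrane protein that restricts virus entry (chr7:141010695-141010994, minus strand, 2 matches):
Ifitm3: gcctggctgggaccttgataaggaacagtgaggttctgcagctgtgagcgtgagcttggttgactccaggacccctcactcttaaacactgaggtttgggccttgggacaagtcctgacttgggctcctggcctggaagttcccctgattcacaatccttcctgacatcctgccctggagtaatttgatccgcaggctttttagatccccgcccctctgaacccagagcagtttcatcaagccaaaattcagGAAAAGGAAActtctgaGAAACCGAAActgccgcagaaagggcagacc

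The matches lay at different distances from the start. In Isg15 the 3 matches began 78, 72 and 66 bases before it, in Ifit1 104 and 85 bases, in Rsad2 120, in Bst2 130 and 124 and in Oas3 75, while in Ifitm3 both lay inside the transcript, 2 and 19 bases after it. No match of the first core was found in the windows of Ifitm1, Ifitm6, Irf7, Irf9, Ifit2, Oasl1, Oasl2 or Isg20. Among 40 other interferon-stimulated genes, listed in the same way and described below, 14 of the 35 with a promoter held the first core (40%) and 1 held the second (2.86%, below the share of all genes). A match is a description of the letters, not a site shown to be used.

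**Figure D1:**
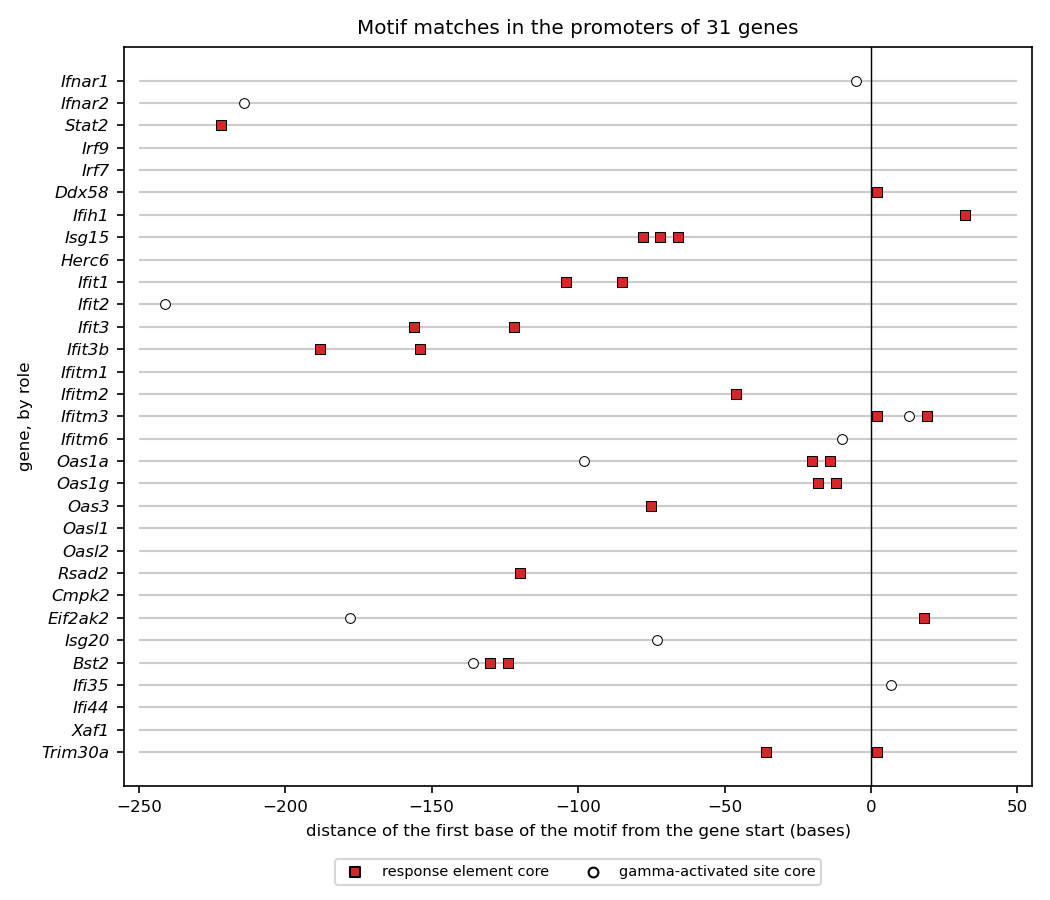
Distance in bases from the gene start (0) to the first base of each motif match in the 31 genes with a promoter, 1 row per gene. Red squares are matches of the response element core, found in 16 genes, and open circles matches of the gamma-activated site core, found in 10.

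Gene by gene, most of the set had its highest mean in sham blood neutrophils and more genes had their lowest in brain-infiltrating neutrophils than in any other group. Of 38 genes whose mean reached 1 CPM, 23 had their highest group mean in sham blood, 7 in tumor-mouse blood, 6 in the tumor, 1 in the liver (Oas1a) and 1 in the brain (Ifitm6). The lowest group mean was in the brain for 21 of the 38, in the tumor for 13, in sham blood for 2 (Zbp1 and Oas1g) and in tumor-mouse blood for 2 (Ifit2 and Bst2). The same counts over all genes were not made, so they do not show that this order is particular to the set. The median of the 38 genes in a library, as log2 CPM relative to the mean of each gene, was 0.70 ± 0.30 (SD, n = 4) in sham blood, 0.19 ± 0.37 in tumor-mouse blood, 0.01 ± 0.38 in the liver, -0.11 ± 0.15 in the tumor and -0.58 ± 0.60 in the brain. Neighbours in this order overlapped in their libraries.

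**Figure D2:**
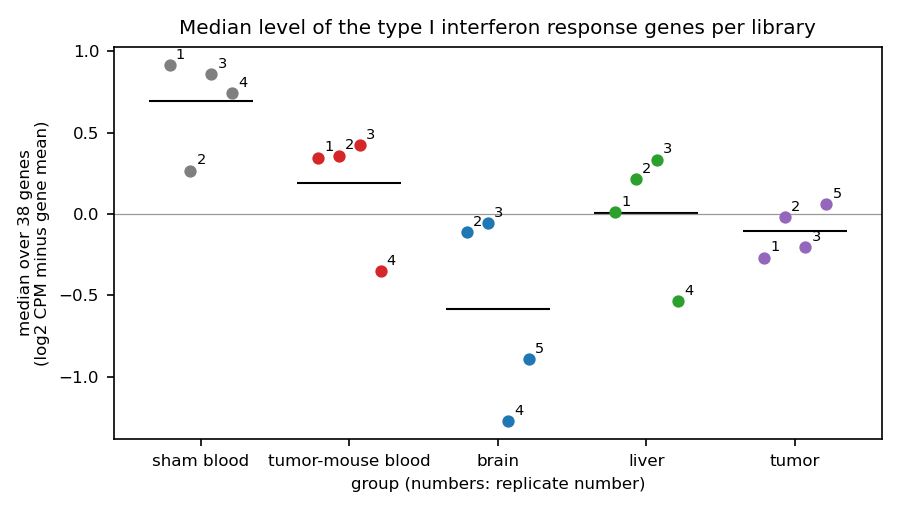
Median over 38 genes of log2 CPM minus the mean of the gene, for each library (points, with the replicate number) and the mean of the group (bars). Brain 4 and 5 lie at -1.27 and -0.89, and brain 2 and 3 at -0.11 and -0.06.

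The spread within groups was wide. The brain libraries fell into a pair at -1.27 and -0.89 (numbers 4 and 5) and a pair at -0.11 and -0.06 (numbers 2 and 3), and the first pair was sequenced in the same lane. In tumor-mouse blood, library 4 stood at -0.35 and the other 3 at 0.35 to 0.42, and in the liver library 4 stood at -0.53 and the others at 0.01 to 0.33. Counted as a share of all reads, the 36 genes other than the 4 Ifitm genes took 0.37 to 0.51% in sham blood, 0.23 to 0.38% in tumor-mouse blood, 0.14 to 0.25% in liver libraries, 0.19 to 0.30% in the tumor and 0.10 to 0.20% in the brain. The brain and sham blood libraries did not overlap in this share, nor did the brain and tumor-mouse blood libraries. With the Ifitm genes included the brain took 0.49 to 0.55%, against 0.50 to 0.64% in sham blood and 0.55 to 0.93% in tumor-mouse blood, 0.34 to 0.53% in the liver and 0.26 to 0.40% in the tumor, so that by this share the tumor was the lowest group and tumor-mouse blood had the highest mean.

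**Figure D3:**
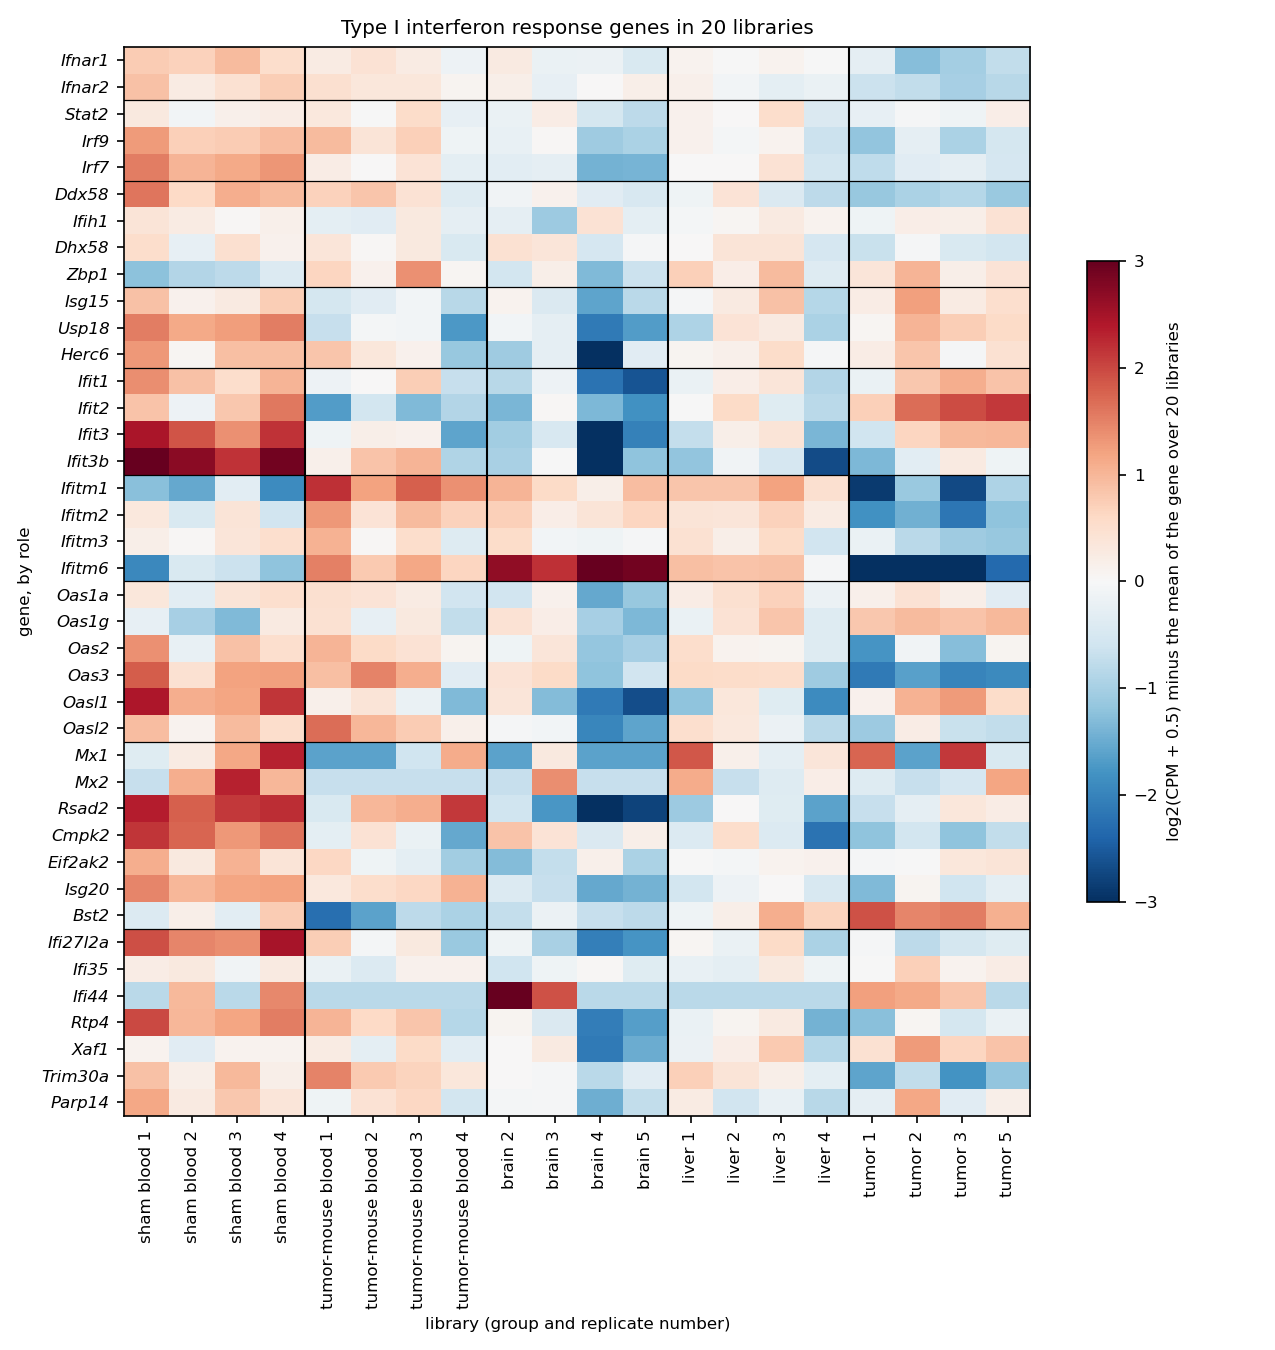
Level of the 40 genes (rows, grouped by role) in the 20 libraries (columns), as log2(CPM + 0.5) minus the mean of the gene over all libraries. Red is higher and blue lower. Ifitm6 is red in the brain and dark blue in the tumor, and Ifit3, Ifit3b and Rsad2 are red in sham blood.

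Of the 40 genes, 27 passed the test in at least 1 of 7 comparisons, by the quasi-likelihood test of edgeR with Benjamini-Hochberg adjustment over all genes tested and a threshold of 0.05. Stat2, Ifih1, Dhx58, Herc6, Ifit3b, Oas1a, Oas1g, Mx1, Mx2, Eif2ak2, Ifi35, Rtp4 and Parp14 passed it in none, which does not show that they did not differ. The comparisons share libraries, so their counts are not independent of each other. The share of all genes passing in at least 1 comparison was not computed, so the 27 cannot be read as particular to the set. In tumor against tumor-mouse blood alone, 13.3% of all genes tested were higher and 10.3% lower. Named genes below follow a rule given with the methods. Values after ± are SDs over 4 libraries.

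The receptor genes and the factors they activate were present in every library. Ifnar1 (chr16:91485238-91507441) encodes the signaling chain of the receptor. It had 186 to 249 CPM in sham blood, 115 to 174 in tumor-mouse blood, 93.8 to 154 in brain libraries, 127 to 139 in those of the liver and 52.3 to 107 in the tumor. Ifnar2 (chr16:91372783-91405589), the chain that binds interferon with it, had 98.6 to 153, 87.6 to 117, 70.1 to 93.3, 67.7 to 91.8 and 41.2 to 53.4 CPM in the same order. Both had their lowest mean in the tumor, where Ifnar2 did not overlap with any other group. Against tumor-mouse blood, Ifnar1 fell by 0.98 on the log2 scale (standard error 0.20, adjusted p = 0.000827) and Ifnar2 fell by 1.12 (0.17, adjusted p = 3.24e-05), both by edgeR. The tumor was also below the liver for both, by 1.78-fold and 1.63-fold (adjusted p = 0.00895 and 0.00854). Brain levels were 1.58-fold and 1.78-fold those of the tumor (adjusted p = 0.0259 and 0.00118), and neither gene passed the test between brain and tumor-mouse blood (adjusted p = 0.358 and 0.324). The neutrophil marker sum was 3658 to 10600 CPM in the tumor, the lowest group. It was 48700 to 80800 CPM in the brain and 43060 to 62040 in tumor-mouse blood, with overlapping libraries. The part of neutrophil content in the differences of the receptor genes was not tested. Over 27 alternatives, brain against tumor passed in all for Ifnar2 but in 11 for Ifnar1 (adjusted p up to 0.186), which lost its call with lane as a factor, with DESeq2 size factors, with limma, with the compared groups alone, or without any 1 of brain 2, 3 or 4, tumor 2 or 3, sham blood 4, tumor-mouse blood 1 or 3 or the 4 liver libraries. Tumor against liver failed in 1 of the 27 for each, without tumor 2 for Ifnar1 and without liver 1 for Ifnar2.

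Irf9 (chr14:55603571-55610030), a DNA-binding partner of STAT2, had 344, 231, 240 and 267 CPM in the sham blood libraries and 272, 183, 234 and 130 in tumor-mouse blood. It had 122, 145, 66.6 and 72.3 CPM in the brain, 155, 135, 153 and 90.5 in the liver and 62.1, 117, 73.2 and 98.0 in the tumor. Brain and tumor were the low groups, and brain 3 overlapped with tumor-mouse blood 4. Against tumor-mouse blood, Irf9 was 2.02-fold lower in the brain (adjusted p = 0.0331) and 2.34-fold lower in the tumor (adjusted p = 0.00192). The exons of Irf9 share 123 bases with Rnf31 on the same strand, so a part of its counts is uncertain.

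Irf7 (chr7:141262706-141266481), which amplifies the response, had 425, 296, 323 and 365 CPM in sham blood and 172, 147, 195 and 119 in tumor-mouse blood, with no overlap. It fell by 1.15 on the log2 scale between them (standard error 0.26, adjusted p = 0.0125, edgeR). Its exons share 45 bases with Phrf1 on the other strand, which the kit does not tell apart. The brain libraries of Irf7 had 118, 122, 54.4 and 55.8 CPM, which did not pass the test against tumor-mouse blood (adjusted p = 0.0584). Stat2 (chr10:128270559-128292849) was the steady one of these factors, with group means from 65.7 ± 20.48 CPM in the brain to 90.03 ± 21.7 in tumor-mouse blood.

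Sensors of foreign nucleic acids did not move as 1 group. Ddx58 (chr4:40203773-40239828), which encodes the RNA sensor RIG-I, had 166 ± 49.5 CPM in sham blood, 106 ± 34.3 in tumor-mouse blood, 67.9 ± 12.6 in the brain, 68.4 ± 25.1 in the liver and 37.97 ± 3.57 in the tumor. The tumor libraries, at 34.9 to 42.1 CPM, lay below every library of the other groups. Ddx58 was lower in the tumor than in tumor-mouse blood (2.79-fold, adjusted p = 0.000253), than in the brain (1.79-fold, adjusted p = 0.0345) and than in the liver (1.80-fold, adjusted p = 0.0481), by edgeR. The first of these held in all 27 alternatives. The call against the brain held in 11 (adjusted p up to 0.141) and that against the liver in 7 (up to 0.296). Both were lost with DESeq2 size factors, with limma, with lane as a factor, and without any 1 of the 4 brain or 4 tumor libraries, liver 1 or 3, sham blood 4 or tumor-mouse blood 1 or 3, and the call against the liver also with the DESeq2 test, with the compared groups alone and without liver 2 or sham blood 3. Ifih1 (chr2:62595798-62646255), for the sensor MDA5, had group means from 24.2 ± 10.3 CPM in the brain to 32.6 ± 3.30 in sham blood and passed no test. Zbp1 (chr2:173206612-173218923), a sensor of Z-form nucleic acids, went the other way from most genes between the blood groups. It had 22.7, 28.9, 31.1 and 40.6 CPM in sham blood and 84.6, 59.1, 139 and 55.7 in tumor-mouse blood, without overlap, and was 2.75-fold higher in the latter (adjusted p = 0.0163). The brain, with 36.5, 61.0, 21.3 and 34.1 CPM, was 2.02-fold below the tumor (adjusted p = 0.0433), and its difference from tumor-mouse blood just missed the threshold (adjusted p = 0.0516).

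The ISG15 system consists of Isg15, the protease Usp18 that removes it and restrains the receptor, and the ligase Herc6. Isg15 had 60.1, 35.7, 39.2 and 54.6 CPM in sham blood, 22.3, 25.6, 30.6 and 17.98 in tumor-mouse blood, 34.8, 23.8, 10.4 and 18.3 in the brain, 31.4, 39.0, 60.3 and 17.6 in the liver and 37.6, 76.97, 38.5 and 45.8 in the tumor. The tumor libraries all lay above those of the brain and of tumor-mouse blood. Isg15 was 2.06-fold higher in the tumor than in tumor-mouse blood (adjusted p = 0.0365) and 2.28-fold higher than in the brain (adjusted p = 0.026), and the blood groups did not pass the test (adjusted p = 0.159) although they did not overlap. Usp18 (chr6:121245906-121270917) had 68.8, 51.6, 56.5 and 68.4 CPM in sham blood and 14.2, 22.4, 21.98 and 6.69 in tumor-mouse blood, a fall of 3.76-fold (adjusted p = 0.0171). Its brain libraries held 21.8, 19.2, 4.99 and 6.94 CPM, all below the 24.2 to 47.6 of the tumor (2.76-fold lower, adjusted p = 0.0264).

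The IFIT proteins bind foreign RNA ends and block their translation, and their 4 genes here lie close together on chromosome 19. Ifit1, Ifit3 and Ifit3b had their highest means in sham blood and their lowest in the brain, whereas Ifit2 was highest in the tumor. Ifit3 (chr19:34583531-34588731) had 98.8, 66.7, 46.9 and 81.3 CPM in sham blood, 16.005, 20.1, 19.3 and 5.55 in tumor-mouse blood and 8.31, 12.5, 1.23 and 3.98 in the brain. It fell 4.81-fold between the blood groups (adjusted p = 0.0228) and was 4.24-fold lower in the brain than in the tumor, which had 11.4, 27.9, 34.99 and 36.0 CPM (adjusted p = 0.0113). Ifit1 (chr19:34640871-34650009) had 83.4 ± 20.9 CPM in sham blood, 43.7 ± 18.6 in tumor-mouse blood, 18.9 ± 14.3 in the brain and 68.7 ± 22.9 in the tumor, and was 3.63-fold lower in the brain than in the tumor (adjusted p = 0.00496). Brain libraries 4 and 5 held 8.63 and 6.53 CPM of it and libraries 2 and 3 held 23.4 and 37.2.

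Ifit2 (chr19:34550694-34576419) had 29.3, 57.3, 70.5 and 78.7 CPM in the tumor, 17.4, 26.6, 13.6 and 9.84 in the liver, 6.56, 18.3, 6.65 and 4.67 in the brain, 5.19, 11.98, 6.77 and 9.39 in tumor-mouse blood and 32.5, 15.9, 31.6 and 53.8 in sham blood. Every tumor library exceeded every library of tumor-mouse blood, brain and liver. The gene was 7.07-fold higher in the tumor than in tumor-mouse blood (adjusted p = 7.89e-05), 6.51-fold higher than in the brain (adjusted p = 0.000199) and 3.49-fold higher than in the liver (adjusted p = 0.0103), and 4.01-fold lower in tumor-mouse blood than in sham blood (adjusted p = 0.0114). The near-identical pair Ifit3 and Ifit3b may share reads, and Ifit3b passed no test.

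The IFITM proteins sit in membranes and keep viruses from fusing with the cell. Their 4 members here lie within 63.1 kb of chromosome 7, from position 140954837 to 141017924. Ifitm6 (chr7:141015699-141017924), a mouse member of the family known from myeloid cells, had 64.6, 181, 158 and 107 CPM in sham blood, 709, 428, 558 and 390 in tumor-mouse blood and 1561, 1135, 2736 and 1853 in the brain. It had 460, 447, 454 and 241 CPM in the liver and 15.6, 19.9, 17.7 and 48.8 in the tumor. The brain libraries lay above all others and the tumor libraries below all others, with no overlap. The order of the group means was brain (1821 ± 677), tumor-mouse blood (521 ± 144), liver (400 ± 107), sham blood (128 ± 52.2) and tumor (25.5 ± 15.6), and only tumor-mouse blood and liver overlapped among neighbours.

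In the tests by edgeR, Ifitm6 was 3.5-fold higher in the brain than in tumor-mouse blood (log2 1.80, standard error 0.37, adjusted p = 0.00488), 4.55-fold higher than in the liver (2.19, 0.37, adjusted p = 0.00184) and 71.5-fold higher than in the tumor (6.16, 0.45, adjusted p = 1.64e-08). It rose 4.08-fold from sham to tumor-mouse blood (adjusted p = 0.00255) and was 20.4-fold lower in the tumor than in tumor-mouse blood (adjusted p = 1.23e-07). The difference between brain and tumor-mouse blood lost its call with the sequencing lane as a factor (log2 1.15, adjusted p = 0.188) and with the 4 libraries of lane 3, among them brain 4 and 5, left out (1.37, adjusted p = 0.0582). In lane 1, the only lane with both groups, brain 3 held 1135 CPM and tumor-mouse blood 2 and 4 held 428 and 390. The differences from the liver and the tumor passed the test in both settings. Microglia markers summed to 380 to 1477 CPM in the brain and 124 to 226 in tumor-mouse blood, and their part in the difference was not tested. The neutrophil genes S100a8 and S100a9, for the calprotectin subunits, had 8115 to 18481 and 10680 to 23231 CPM in the brain. In tumor-mouse blood they had 8024 to 12048 and 9895 to 16941 CPM, overlapping with the brain. The neutrophil marker Csf3r had 1923 to 3945 CPM in the brain and 5504 to 7252 in tumor-mouse blood, and Cxcr2 1232 to 1639 and 2802 to 4051. Camp went the other way, with 538 to 2459 and 51.9 to 134 CPM, as did Elane, with 5.42 to 22.3 and 0 to 1.26. So did Retnlg, with 8437 to 14293 and 7853 to 8336 CPM, and Mmp8, with 9044 to 10016 and 5094 to 7726. Ly6g and Mmp9 (5988 to 7559 and 3656 to 7608 CPM) overlapped. By the test, 1 of the 10 neutrophil markers was higher and 2 lower in the brain, where 3.56% and 1.41% of all genes were.

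Ifitm1 (chr7:140967221-140969825) had 280, 228, 531 and 179 CPM in sham blood and 3020, 1520, 2285 and 1712 in tumor-mouse blood, a rise of 7.01-fold (log2 2.81, standard error 0.41, adjusted p = 0.000255). It had 1351, 981, 751 and 1265 CPM in the brain, 1190, 1188, 1542 and 923 in the liver and 90.7, 306, 101 and 349 in the tumor. The brain libraries lay below those of tumor-mouse blood, but the difference did not pass the test (adjusted p = 0.156). Ifitm1 was 10.1-fold lower in the tumor than in tumor-mouse blood (adjusted p = 3.6e-06), 5.72-fold lower than in the liver (adjusted p = 0.000195) and 5.14-fold lower than in the brain (adjusted p = 0.000212).

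Ifitm2 (chr7:140954837-140955987) had 737, 432, 781 and 400 CPM in sham blood and 1481, 789, 1146 and 957 in tumor-mouse blood, where it was 1.86-fold higher (adjusted p = 0.044). In the tumor it had 168, 219, 133 and 259 CPM, below every other library, and was 5.62-fold lower than in tumor-mouse blood (adjusted p = 3.06e-07), 4.33-fold lower than in the brain (adjusted p = 3.43e-06) and 4.13-fold lower than in the liver (adjusted p = 1.04e-05). Ifitm3 (chr7:141009586-141010770), the member best known for blocking influenza virus, had means of 426 ± 61.4 CPM in sham blood, 462 ± 198 in tumor-mouse blood, 376 ± 89.3 in the brain and 409 ± 128 in the liver, and no comparison among these groups passed the test. Only the tumor stood apart, at 208 ± 66.4 CPM (2.23-fold below tumor-mouse blood, adjusted p = 0.00446). Per kilobase of exon, the mean level of Ifitm6 in the brain was 2013 CPM, and in tumor-mouse blood that of Ifitm1 was 1951, of Ifitm2 1669, of Ifitm3 681 and of Isg15 31.9. The Ifitm genes are paralogs, and no source used here says how reads that fit several of them were counted.

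**Figure D4:**
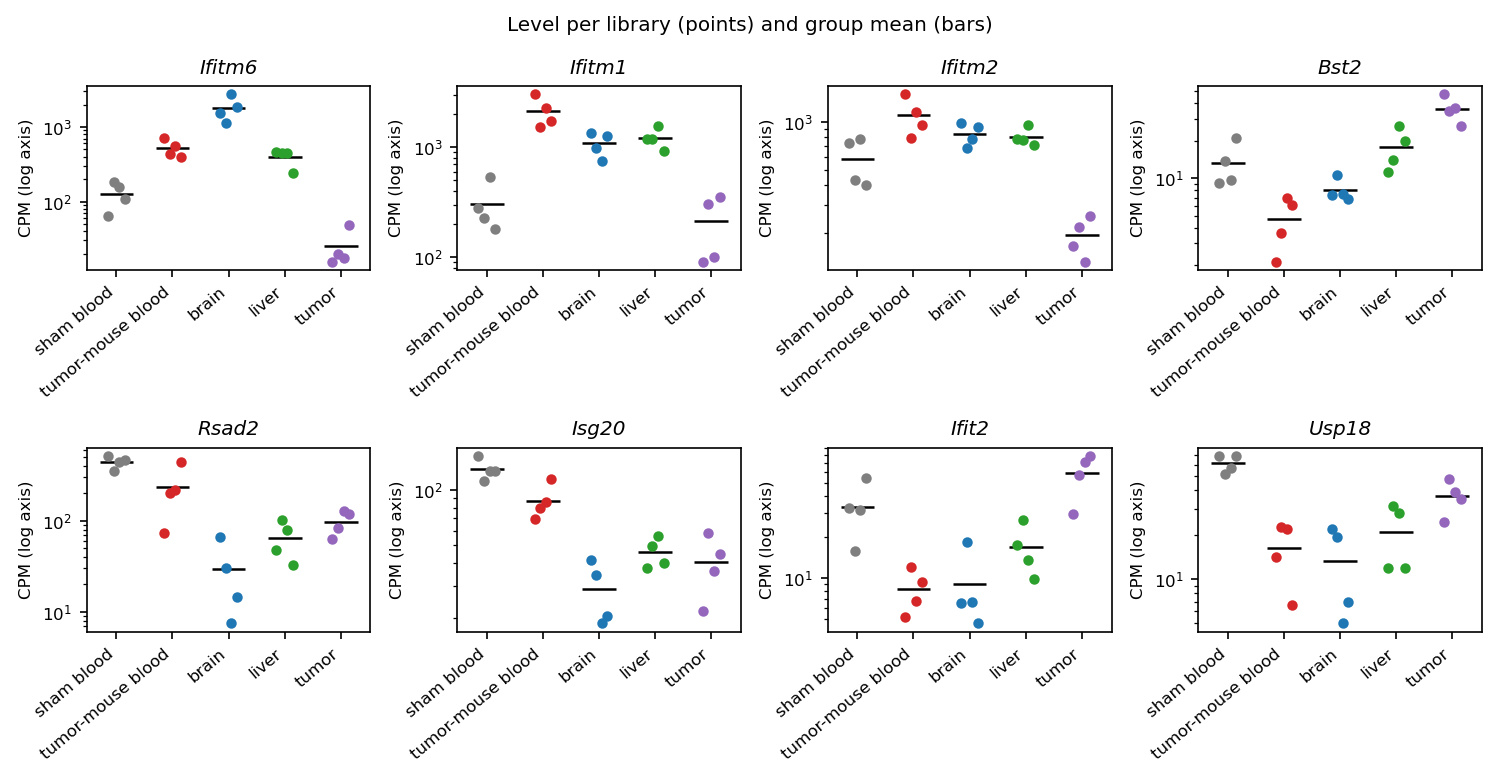
Level of 8 genes in each library (points, CPM on a log axis) with the group mean (bars). Ifitm6 spans 15.6 CPM in a tumor library to 2736 in a brain library, Bst2 is highest in the tumor, and Rsad2, Isg20 and Usp18 are highest in sham blood.

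The OAS genes encode enzymes that sense double-stranded RNA and activate RNase L, with Oasl1 and Oasl2 as relatives. Oas3 (chr5:120753098-120777661) had 334, 130, 217 and 223 CPM in sham blood, 177, 267, 203 and 75.2 in tumor-mouse blood, 126, 140, 40.5 and 63.2 in the brain, 142, 139, 137 and 44.8 in the liver and 21.3, 30.4, 23.5 and 24.6 in the tumor. The tumor libraries lay below all others. Oas3 was 7.23-fold lower there than in tumor-mouse blood (adjusted p = 3.02e-05), 4.64-fold lower than in the liver (adjusted p = 0.00101) and 3.71-fold lower than in the brain (adjusted p = 0.00242), by edgeR.

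Oasl2 (chr5:114896936-114912234) had 732, 411, 734 and 549 CPM in sham blood, 1223, 763, 653 and 423 in tumor-mouse blood and 372, 363, 98.4 and 127 in the brain. No brain library reached tumor-mouse blood, and the gene was 3.19-fold lower in the brain (adjusted p = 0.0192) and 2.78-fold lower in the tumor (adjusted p = 0.0106). Oas2 (chr5:120730333-120749853) was 2.21-fold lower in the tumor than in tumor-mouse blood (67.3 ± 37.9 against 149 ± 41.6 CPM, adjusted p = 0.0411), with overlapping libraries. Oas1a and Oas1g passed no test, and Oasl1, which shares 38 exon bases with an antisense gene, was 3.44-fold lower in the brain than in the tumor (adjusted p = 0.037).

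Among the other antiviral effectors, Rsad2 (chr12:26442746-26456452), whose product viperin makes a chain-terminating nucleotide, had the largest difference between brain and tumor-mouse blood among the genes past the test. It had 517, 352, 444 and 470 CPM in sham blood, 73.2, 204, 218 and 445 in tumor-mouse blood and 66.7, 30.1, 7.503 and 14.4 in the brain. In the liver it had 47.2, 102, 78.4 and 32.8 CPM and in the tumor 62.7, 83.7, 127 and 119. The brain libraries lay below every tumor-mouse blood library, with the smallest gap between brain 2 and tumor-mouse blood 1. Rsad2 was 7.91-fold lower in the brain than in tumor-mouse blood (log2 -2.98, standard error 0.55, adjusted p = 0.00212), 3.61-fold lower in the liver than there (adjusted p = 0.0429) and 3.30-fold lower in the brain than in the tumor (adjusted p = 0.0282). Its level in tumor-mouse blood varied widely, and its neighbour Cmpk2 (chr12:26469204-26479837), a nucleotide kinase next to it on chromosome 12, did not follow it there: library 4 held the highest Rsad2, at 445 CPM, and the lowest Cmpk2, at 20.8. Cmpk2 fell 3.96-fold from sham to tumor-mouse blood (adjusted p = 0.00915).

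Isg20 (chr7:78913424-78920396), an RNA exonuclease, had 154, 112, 127 and 128 CPM in sham blood, 69.4, 80.3, 85.6 and 115 in tumor-mouse blood, 41.3, 34.2, 18.7 and 20.4 in the brain, 37.3, 49.5, 55.9 and 39.8 in the liver and 21.7, 58.1, 36.1 and 44.8 in the tumor. Every tissue library lay below every blood library. Isg20 was lower than in tumor-mouse blood in the brain (3.06-fold, adjusted p = 0.00117), the tumor (2.18-fold, adjusted p = 0.00415) and the liver (1.92-fold, adjusted p = 0.0487), by edgeR. It was the only gene of the 40 that passed in all 3. Its call in the tumor was lost with lane as a factor.

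Bst2 (chr8:71534255-71537456), whose product tethers budding virus to the cell and also marks plasmacytoid dendritic cells, was higher in the tumor and the liver. It had 9.15, 13.8, 9.66 and 20.97 CPM in sham blood, 2.14, 3.66, 6.90 and 6.13 in tumor-mouse blood, 7.33, 10.7, 7.42 and 6.87 in the brain, 11.1, 13.9, 26.4 and 19.8 in the liver and 47.3, 34.7, 36.5 and 26.4 in the tumor. The tumor and liver libraries all lay above those of tumor-mouse blood. Bst2 was 7.69-fold higher in the tumor (adjusted p = 7.66e-06) and 3.79-fold higher in the liver (adjusted p = 0.00319) than in tumor-mouse blood, 2.85-fold lower in tumor-mouse than in sham blood (adjusted p = 0.0249) and 4.48-fold lower in the brain than in the tumor (adjusted p = 0.000302). Markers of plasmacytoid dendritic cells, Bst2 among them, summed to 68.3 to 155 CPM in sham blood and 10.8 to 16.7 in tumor-mouse blood. The sums were 34.7 to 157 CPM in brain libraries, 28.1 to 52.9 in the liver and 45.8 to 84.8 in the tumor. Of the 9 markers, 9 had a count in sham blood, the liver and the tumor, 8 in the brain and 5 in tumor-mouse blood. Bst2 itself gave 26.4 to 47.3 CPM of the tumor sums and Tcf4 17.2 to 33.4, so these sums are not independent of the Bst2 level. Siglech, a defining marker of these cells that microglia also express, had no count in tumor-mouse blood and at most 0.017 CPM in the tumor, against 13.4 to 92.4 in the brain.

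Mx1 and Mx2, which encode dynamin-like GTPases that trap viral particles, were almost absent. Mx1 (chr16:97447035-97462907) had at most 6.995 CPM, in sham blood 4, and 0 counts in 2 tumor-mouse blood, 3 brain and 1 tumor library. Mx2 had 0 counts in all tumor-mouse blood libraries, which allows up to 0.0605 CPM at 3 counts per library, and at most 3.53 CPM elsewhere. Ifi44 had 0 counts in tumor-mouse blood and in the liver and passed the test in the tumor, at 1.55, 1.44, 1.07 and 0 CPM, against tumor-mouse blood (adjusted p = 0.048), where it was at least 16.8-fold higher than that floor. That call was lost in 13 of 27 alternatives, among them leaving out any 1 tumor-mouse blood library. These 3 genes are known to be induced by interferon in many mouse cells, and inbred strains such as C57BL/6 carry a defective Mx1 allele.

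Of the remaining induced genes, 3 passed a test. Ifi27l2a (chr12:103442167-103443680), a small mitochondrial membrane protein, had 81.4, 58.9, 55.6 and 118 CPM in sham blood and 34.9, 20.1, 25.9 and 9.39 in tumor-mouse blood, a fall of 3.48-fold (adjusted p = 0.02). Trim30a (chr7:104409025-104465193), a ubiquitin ligase gene of mice, had 649, 401, 368 and 294 CPM in tumor-mouse blood, 233, 225, 131 and 181 in the brain and 77.3, 139, 66.3 and 102 in the tumor. Neither the brain nor the tumor libraries overlapped with tumor-mouse blood. It was 2.22-fold lower in the brain (adjusted p = 0.02) and 4.46-fold lower in the tumor (adjusted p = 1.02e-05) than in tumor-mouse blood. Xaf1, a proapoptotic protein, was 2.64-fold lower in the brain than in the tumor (adjusted p = 0.037). Usp18, Cmpk2, Oasl1, Ifi44, Ifi27l2a, Trim30a and Xaf1 lie outside the rule for named genes and were named after their values were seen.

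Counted over the set, the brain against tumor-mouse blood had 1 gene higher (Ifitm6) and 5 lower (Irf9, Oasl2, Rsad2, Isg20 and Trim30a), where 3.56% of all genes tested were higher and 1.41% lower. The median log2 fold change of the 40 genes was -0.65, and that of 12275 genes whose mean reached 1 CPM was 0.06. Markers of other cells differed in the same comparison: 6 of 8 endothelial markers were higher in the brain (sums of 128 to 393 against 17.9 to 40.2 CPM), 7 of 11 of monocytes and macrophages (906 to 3725 against 798 to 854), 6 of 7 of microglia and 3 of 7 of fibroblasts, and their part in these counts was not tested. The number of lower genes depended on single libraries. It was 2 without tumor-mouse blood 1 or without brain 4, 8 without tumor-mouse blood 4, and 9 without brain 2 or brain 3. With lane as a factor, 2 genes were lower and 0 higher (Rsad2 and Isg20 kept their calls). The calls of Rsad2 and Isg20 held in all 27 alternatives, whereas Irf9, Oasl2 and Trim30a lost theirs without brain 4 or without tumor-mouse blood 1, with adjusted p up to 0.334, 0.132 and 0.185 over the alternatives, and Irf9 also without tumor-mouse blood 2 or 3 or brain 5.

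**Figure D5:**
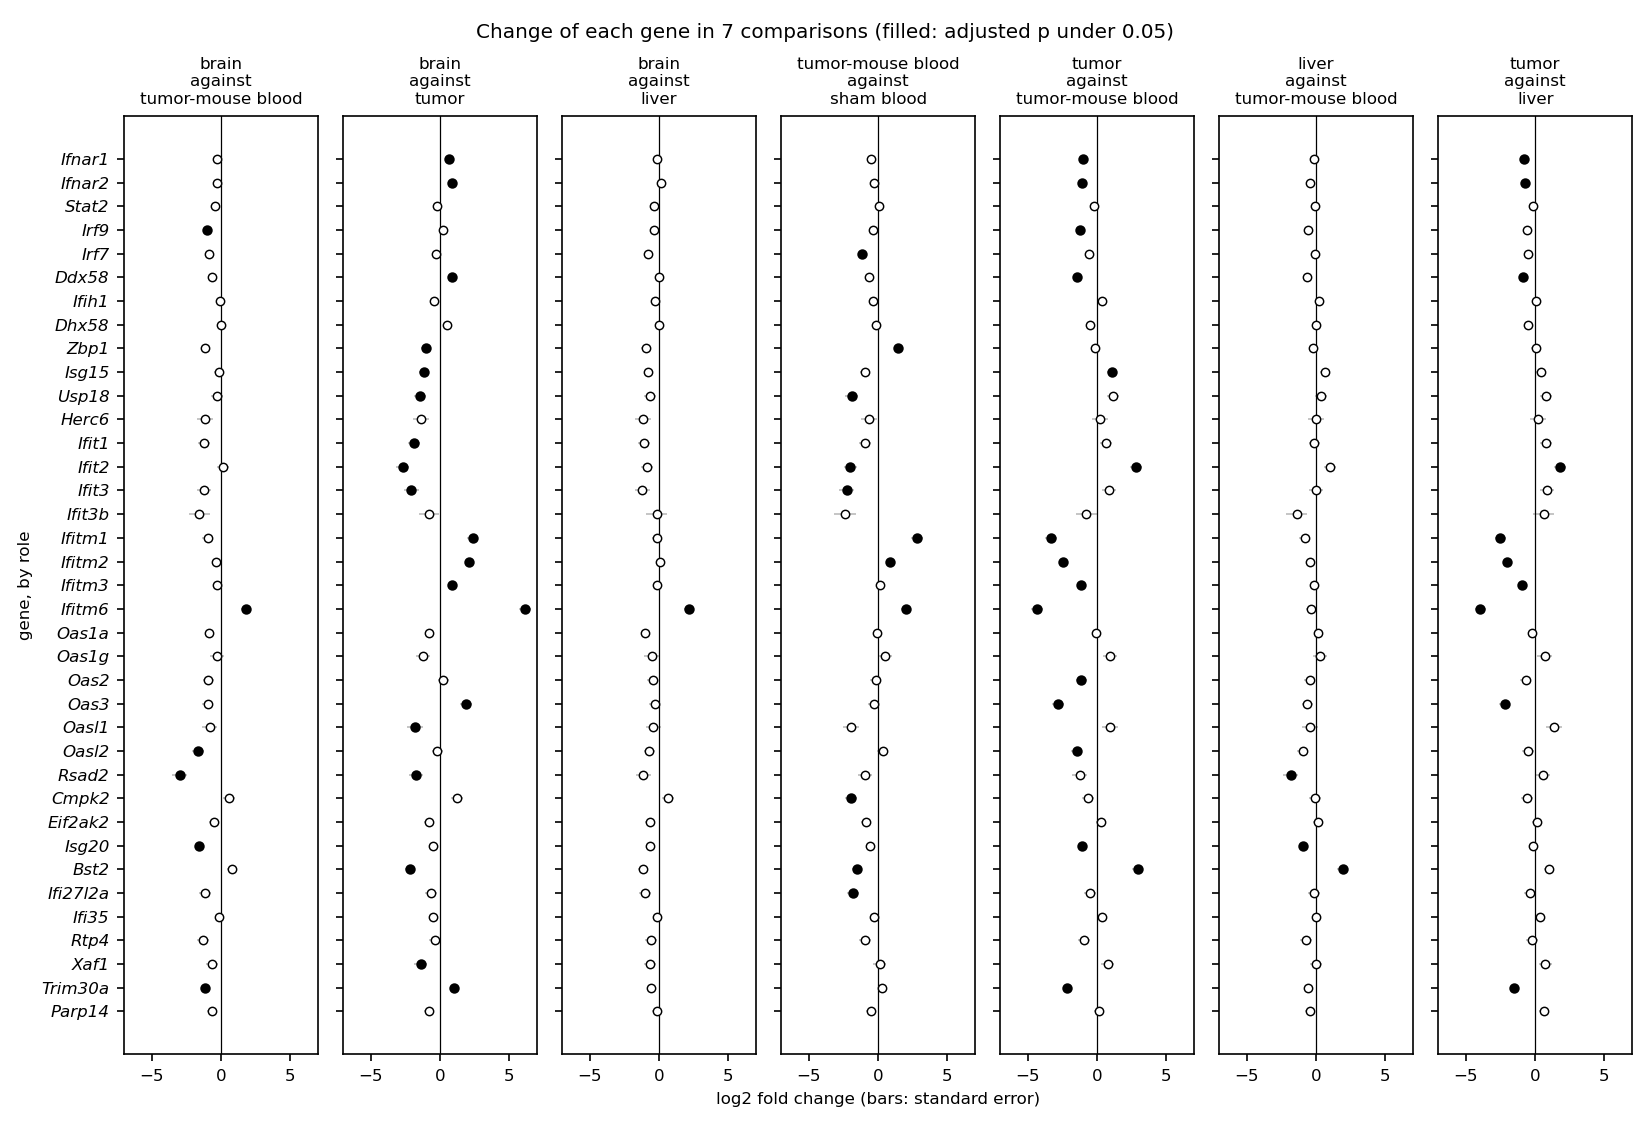
Log2 fold change of 37 genes (Mx1, Mx2 and Ifi44 are left out for their low counts) in the 7 comparisons, first group against second, with standard errors. Filled points passed the test: 6 in the brain against tumor-mouse blood, 19 against the tumor and 1 against the liver.

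Brain against tumor had 9 genes higher and 10 lower, where 8.54% and 6.87% of all genes were called, with a median of -0.45 over the 40 and -0.04 over the abundant genes. Higher were both receptor genes, Ddx58, the 4 Ifitm genes, Oas3 and Trim30a. Lower were Zbp1, Isg15, Usp18, Ifit1, Ifit2, Ifit3, Oasl1, Rsad2, Bst2 and Xaf1. The counts moved with single libraries, to 5 higher without brain 2, brain 3 or tumor 3, and to 4 lower without brain 5, 5 without tumor 2 and 6 without tumor 3. With the lane 3 libraries left out, 8 were higher and 4 lower, and Isg15 (adjusted p = 0.22), Rsad2 (adjusted p = 0.187), Usp18, Oasl1, Xaf1, Zbp1 and Ddx58 lost their calls. Zbp1 passed in 19 of 27 alternatives and Ifitm3 in 10 (adjusted p up to 0.193 and 0.204). Between brain and liver 1 gene, Ifitm6, was higher and 0 were lower by edgeR, where 1.05% and 1.57% of all genes were called, with medians of -0.50 and -0.02. At an unadjusted p of 0.05, 2 genes were higher and 10 lower there, and DESeq2 called 2 and 2. The shares of all genes at these other settings were not computed, so these counts cannot be set beside 1.05% and 1.57%. Without brain 3, 3 genes passed as lower.

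Between the blood groups, 4 genes were higher in tumor mice (Zbp1, Ifitm1, Ifitm2 and Ifitm6) and 7 lower (Irf7, Usp18, Ifit2, Ifit3, Cmpk2, Bst2 and Ifi27l2a), where 1.63% and 1.69% of all genes were called. For all 11 the libraries of the 2 groups did not overlap, but the test that picked them used these same libraries. With the genes that did not pass included, 4 higher and 11 lower genes of the 40 were without overlap. The share of all genes without overlap was not computed. The median of the 40 genes was -0.56 and that of the abundant genes -0.07. Leaving out sham blood 4, tumor-mouse blood 1, 3 or 4 brought the lower genes to 2, 3, 4 and 3, and leaving out sham blood 2 or tumor-mouse blood 3 brought the higher to 2 each. The calls of Ifitm1, Ifitm6 and Cmpk2 held in all 27 alternatives, those of the other 8 in 20 (Ifitm2) to 26 (Irf7) of them, with adjusted p up to 0.148. B cell markers summed to 964 to 1902 CPM in sham blood and 70.0 to 134 in tumor-mouse blood, and their part in these differences was not tested.

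Tumor against tumor-mouse blood had 4 genes higher (Isg15, Ifit2, Bst2 and Ifi44) and 13 lower, where 13.3% and 10.3% of all genes were called, with a median of -0.37 over the 40 and 0.13 over the abundant genes. With DESeq2 size factors the median of all genes moved by 0.13 (log2) in this comparison, by -0.12 in brain against tumor and by 0.14 in tumor against liver, and reversed no call. Isg15 lost its call without tumor 2 or without tumor-mouse blood 1, 2 or 4 (adjusted p up to 0.125 over the alternatives), and the higher genes then numbered 2. With lane as a factor, 3 genes were higher and 10 lower. Isg15, Oas2, Oasl2, Isg20 and Ifi44 then lost their calls and Usp18 gained one. Oas2 passed in 18 of the 27 alternatives (adjusted p up to 0.363). Tumor against liver had 1 gene higher (Ifit2) and 9 lower, where 2.38% and 6.4% of all genes were called (medians -0.16 and 0.07), and 2 were higher without tumor-mouse blood 1. Of the lower genes, Ddx58 passed in 7 and Ifitm3 in 13 of the 27 alternatives. Liver against tumor-mouse blood had 1 gene higher (Bst2) and 2 lower (Rsad2 and Isg20), where 3.98% and 1.2% of all genes were called (medians -0.13 and 0.09). The 2 lower genes were at adjusted p = 0.0429 and 0.0487, and both calls were lost without tumor-mouse blood 2, 3 or 4, liver 1 or 4, sham blood 3 or tumor 3, and 1 of them without sham blood 2, liver 2 or 3 or tumor 5.

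The members varied together to different degrees. Over the 20 libraries, Rtp4 followed the median of the other genes most closely (Pearson r = 0.95, Spearman rho = 0.94), then Irf7 (0.92 and 0.89) and Ifi27l2a (0.89 and 0.85). At the other end stood Ifitm6 (-0.36 and -0.26), Ifitm1 (-0.13 and 0.01), Bst2 (-0.07 and -0.11) and Ifitm2 (0.03 and 0.12). After the group means were removed, Oas3 (r = 0.93), Rtp4 (0.91), Dhx58 (0.90), Irf7 (0.89) and Xaf1 (0.88) had the highest correlations with the others within groups, and Ifih1 (-0.35), Ifi35 (-0.18), Mx1 (-0.14), Bst2 (-0.11), Ifitm6 (-0.07) and Eif2ak2 (-0.02) were below 0. These are descriptions across libraries that share groups, sequencing depth and lanes.

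The interferon genes themselves were almost silent. Of 18 type I interferon genes, 6 had any count. Ifnb1, for interferon beta, had 236 counts in all, at 0.27 CPM in sham blood 2, 2.78 in tumor 1, 0.48 in tumor 3 and 0 in the other 17 libraries. The other 5 had 1 to 40 counts over the 20 libraries.

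Of 18 genes for interferon production, Irf5, a transcription factor, and Ikbke, a kinase that activates IRF3, were higher in the liver than in tumor-mouse blood (1.97-fold, adjusted p = 0.0129, and 5.89-fold, adjusted p = 0.00129) and lower in the brain than in the liver (2.60-fold, adjusted p = 0.00183, and 4.45-fold, adjusted p = 0.00937), by edgeR. Ikbke had 119 to 193 CPM in the tumor, 56.0 to 84.4 in the liver, 9.97 to 21.1 in the brain, 2.90 to 29.1 in tumor-mouse blood and 4.40 to 7.90 in sham blood. In the brain against tumor-mouse blood 2 of the 18 were lower, where 1.41% of all genes were, Myd88, the adaptor of most Toll-like receptors (1.89-fold, adjusted p = 0.0207), and Trim25, which modifies RIG-I (1.71-fold, adjusted p = 0.0488). Of 18 genes for receptor signaling and its control, Ube2l6, the enzyme that carries ISG15 to its ligase, was the 1 that passed between brain and tumor-mouse blood (-3.46 on the log2 scale, adjusted p = 0.00046). Its tumor-mouse blood libraries held 91.2, 240, 465 and 1467 CPM, and the brain libraries 28.8 to 82.8, the liver 31.3 to 49.8, the tumor 34.99 to 59.0 and sham blood 288 to 397. In tumor against tumor-mouse blood 3 of these 18 were higher and 10 lower, where 13.3% and 10.3% of all genes were called.

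Of 40 other interferon-stimulated genes, 2 were higher and 8 lower in the brain than in tumor-mouse blood, with a median log2 fold change of -0.54, beside the 1 and 5 of the main set and 3.56% and 1.41% of all genes. The most abundant of the lower ones were Slfn2 (1.62-fold, adjusted p = 0.037), Ly6e (1.5-fold, adjusted p = 0.045) and Slfn1 (1.98-fold, adjusted p = 0.0266), by edgeR. Slfn1 and Slfn2 are Schlafen genes of immune cells. In brain against tumor 9 were higher and 10 lower, where 8.54% and 6.87% of all genes were called, and between the blood groups 3 were lower (1.69% of all genes), Cd274, Slfn8 and Helz2. Cd274, for the checkpoint ligand PD-L1, was also lower in the brain than in the liver (7.13-fold, adjusted p = 9.1e-05). In tumor against tumor-mouse blood 8 were higher and 16 lower, beside the 13.3% and 10.3% of all genes.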

How the data were processed

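Neutrophils sorted from 5 sources were sequenced as 20 libraries, amplified with SMART-Seq v4, a kit that does not mark strand, and read as single reads with 4 libraries per lane. The authors deposited raw counts of reads for each Ensembl gene (whole numbers) and rlog values on a log2 scale, which they made with the regularized-logarithm transformation of DESeq2 (build mm10, per the submitters' processing notes). No source used here names the aligner, the counting tool or the DESeq2 version. The tables held 51918 entries, of which 6 repeated a gene and were dropped. Symbols missing from 1918 were taken from GENCODE M21 for 1750, as were positions (mm10). Members are matched by symbol.

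From the deposited counts, TMM factors and a quasi-likelihood model were computed with edgeR 4.0.16 (R 4.3.3), in 1 fit over the 20 libraries, on the 28762 genes with a count, with 15 residual and 6.48 prior degrees of freedom. P-values are two-sided, adjusted after Benjamini and Hochberg over all genes of a comparison, and called under 0.05 with no fold threshold. The rlog values served only as an alternative with limma 3.58.1. Intervals and floors (3 counts per library) cover counting error only. Only the main edgeR fit was tested on simulated data, not the alternatives.

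Named genes are 20 members listed to cover all roles except that of the remaining induced genes. To these were added the 4 largest changes per comparison among called genes whose higher group reached 10 CPM. Per pathway list, up to 3 of the most abundant past the test were named. The members and lists were chosen with earlier results of these data known. Alternatives were DESeq2 1.42.0 size factors or test, filterByExpr, a replicate block, lane as a factor, the compared groups alone, limma on rlog values and leaving out each library. Leaving out the 4 libraries of lane 3 was added after seeing the data. Same-numbered samples did not deviate together in every pair (correlations of deviations from -0.11 to 0.16 over the comparisons), so the numbers were not taken to pair samples. No pair of replicates agreed within sampling noise. Some items are not reported here.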

Additional observations from a re-analysis of the deposited data

Results flagged for a closer look

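In a group of 4 libraries, 1 library was marked where its gap to the nearest other took a larger share of the range of the group than Dixon's critical value. This was looked at in 205 groups of values, the 40 genes and their library median in 5 groups each, and 13 were marked, where chance gives about 1 in 20 groups, or 10.2.

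Brain 3 held 4 of the 13. In it Ifit2 had 18.28 CPM (next 6.65), Bst2 10.7 CPM (next 7.42), Mx1 1.373 CPM and Mx2 1.625 CPM, the last 2 with 0 in the other brain libraries. Brain 2 had 509.4 CPM of Ifitm3 (next 340.9).

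In tumor-mouse blood 4 the median log2 deviation of the 38 genes was -0.354, against 0.347 in the nearest library of that group, and in tumor-mouse blood 3 Ifih1 had 34.42 CPM (next 23.23). Liver 4 had 240.7 CPM of Ifitm6 (next 447) and 44.76 CPM of Oas3 (next 137), the lowest of the group in both, and liver 1 had 5.047 CPM of Mx1 (next 1.445).

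Tumor 5 had 48.79 CPM of Ifitm6 (next 19.89) and 1.35 CPM of Mx2 (next 0.1191), and sham blood 2 had 11.71 CPM of Xaf1 (next 16.06).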

How the results depend on the processing

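Of 67 calls of a gene in a comparison, 34 held under all 27 alternatives other than leaving out lane 3, which was added after seeing the data, and 0 reversed. Lane as a factor kept 51 of the 67, DESeq2 size factors 61, the DESeq2 test 65, limma on rlog values 59, the replicate block 64 and leaving out lane 3 54. The cause of lost calls was not tested. Shares of all genes called were computed only for the main edgeR fit over the 20 libraries. Counts under other settings, in this section and above, therefore cannot be set beside those shares. The counts of genes higher and lower that moved by over 1.5 times were as follows. The DESeq2 test gave 3 higher and 9 lower for brain against tumor-mouse blood, 2 and 2 for brain against liver, 7 higher in the tumor and 2 higher in the liver against tumor-mouse blood, and 5 higher in the tumor against the liver. Lane as a factor gave 0 higher and 2 lower for brain against tumor-mouse blood and 2 higher in the tumor against the liver, and leaving out lane 3 gave 2 lower in the brain against tumor-mouse blood, 4 lower against the tumor and 2 higher in the tumor against the liver. The compared groups alone gave 5 lower in the brain against the tumor and 3 higher in the tumor against the liver. Limma on rlog values gave 1 lower in the liver against tumor-mouse blood and 2 higher in the tumor against the liver, as DESeq2 size factors did for the latter.

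With the replicate number as a block, 0 genes were lower in the liver against tumor-mouse blood (2 without the block) and 2 higher in the tumor against the liver (1 without it). Isg15 in the tumor, and Rsad2 and Isg20 in the liver, lost their calls against tumor-mouse blood under the block, and the other calls kept theirs. It added calls for Irf7 in the brain and Usp18 in the tumor against tumor-mouse blood, Cmpk2 in brain against tumor, Bst2 in tumor against liver, and Ifit3b and Oasl1 between the blood groups (9 lower). The numbers are not known to mark mice.

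Leaving out 1 library at a time gave 1 to 1 higher and 2 to 9 lower genes for brain against tumor-mouse blood, 5 to 10 and 4 to 10 for brain against tumor, 1 to 1 and 0 to 3 for brain against liver, 2 to 4 and 2 to 8 between the blood groups, 2 to 5 and 12 to 14 in the tumor and 1 to 1 and 0 to 2 in the liver against tumor-mouse blood, and 1 to 2 and 6 to 9 in the tumor against the liver. Mx1, Mx2 and Ifi44 had 572 to 2052 counts over the 20 libraries, so that their values have the widest relative counting error of the 40 genes.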
